A study of Mus musculus with 3 samples.

Results

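The genes described here are 6 ligands and 2 receptors of the tumour necrosis factor (TNF) superfamily in bone marrow-derived macrophages (BMDMs): the ligands *Tnf*, *Tnfsf9*, *Tnfsf10*, *Tnfsf12*, *Tnfsf13b* and *Tnfsf15*, and the TNF receptors *Tnfrsf1a* and *Tnfrsf1b*. They were chosen by gene symbol, 8 of the 32285 genes in the count tables, and all 8 were found and had UMIs in every library. Per the labels, the macrophages came from pooled marrow of female C3H/HeN mice aged 6-8 weeks (6 weeks in the methods), and they were given purified lipoproteins of *Borrelia burgdorferi* (*Bb*LP), the Lyme disease spirochete, at 1 µg/mL for 1 h (LP1) or 4 h (LP4). The control library, labelled UI, held PBS-treated cells that, per the methods, were collected together with the 4 h cells, so no control of the 1 h time was sequenced. The comparisons ask how RNA levels in macrophages move after exposure to these lipoproteins. Each condition was 1 droplet-based 3′ library, in which the cells of 3 wells, treated separately and derived from 3 mice per the methods, had been put together before loading. The spread between mice or cultures was therefore not measured, no test between conditions was made, and all intervals below are at 95% and cover counting error only.

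TNF superfamily ligands are membrane proteins, many of which are also cut from the cell surface, and they signal as trimers through receptors that recruit TRAF adaptors or, for receptors with a death domain, adaptors that can lead to cell death. Macrophages are a main source of TNF after bacterial lipoproteins engage Toll-like receptors, and TNF acts back on the same cells. *Tnfrsf1a* encodes the widely expressed TNF receptor with a death domain, and *Tnfrsf1b* the TNF receptor without one, found mostly on blood and endothelial cells.

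The filtered data held 6071 cells for UI, 5065 for LP1 and 4670 for LP4, with 35688939, 52475723 and 61402275 unique molecular identifiers (UMIs, 1 per captured RNA molecule) and a median of 5133, 9343 and 11784 UMIs per cell. Levels are a gene's UMIs per 1000000 UMIs of its library (CPM), which with 3′ tags need no scaling by gene length. More RNA per cell and deeper sequencing cannot be told apart here, and fewer cells making a gene and less RNA per cell are looked at through the shares of cells. Pairs of libraries shared 3 to 9 cell barcodes. All 12 macrophage markers fixed for the check were detected in every library, with *Lyz2* in 99.9% of cells, whereas 2 to 3 of 6 lymphoid markers were at 0 and the list summed to 0.644 to 0.8004 CPM. Neutrophil markers summed to 570.0, 473 and 755 CPM in UI, LP1 and LP4, dendritic cell markers to 152 to 154 CPM, and stromal markers to 4.29, 5.85 and 19.7 CPM. The neutrophil sum does not count neutrophils, since *Mmp8*, at 174, 174 and 184 CPM of it, was in 46.7%, 59.8% and 65.7% of cells. Neutrophil-like cells were 0.527%, 0.474% and 0.600% of the cells. In macrophage-like clusters alone, which hold none of the neutrophil-like, dendritic cell-like or stromal marker-led cells, the log2 ratios of LP4 to UI were -1.57 for *Tnf*, -2.32 for *Tnfsf9*, 3.81 for *Tnfsf10* and 6.84 for *Tnfsf15*, beside -1.58, -2.20, 3.69 and 6.44 over all cells.

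The sequence just before the start of 4 of the genes is shown because their RNA differed most between libraries or ranked highest at 4 h. The sequences are those of RefSeq on GRCm38.p6, read 5′ to 3′ on the strand of the gene and trimmed to end at the base before the annotated start, and capitals mark the motif letters that were found.
*Tnf*, chr17:35202008-35202257, minus strand: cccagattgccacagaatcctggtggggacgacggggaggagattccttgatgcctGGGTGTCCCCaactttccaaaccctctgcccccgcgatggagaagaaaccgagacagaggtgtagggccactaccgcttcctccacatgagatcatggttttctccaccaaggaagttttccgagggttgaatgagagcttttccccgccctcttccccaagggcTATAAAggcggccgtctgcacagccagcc
*Tnfsf10*, chr3:27316827-27317027, plus strand: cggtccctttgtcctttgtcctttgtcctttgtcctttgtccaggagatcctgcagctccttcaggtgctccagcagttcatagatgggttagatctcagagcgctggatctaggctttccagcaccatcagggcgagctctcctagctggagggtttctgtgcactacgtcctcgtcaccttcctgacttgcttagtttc
*Tnfsf15*, chr4:63745114-63745309, minus strand: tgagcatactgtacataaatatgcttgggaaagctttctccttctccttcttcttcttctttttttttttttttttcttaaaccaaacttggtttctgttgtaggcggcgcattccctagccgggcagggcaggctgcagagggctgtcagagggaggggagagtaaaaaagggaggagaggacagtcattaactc
*Tnfrsf1b*, chr4:145246871-145247120, minus strand: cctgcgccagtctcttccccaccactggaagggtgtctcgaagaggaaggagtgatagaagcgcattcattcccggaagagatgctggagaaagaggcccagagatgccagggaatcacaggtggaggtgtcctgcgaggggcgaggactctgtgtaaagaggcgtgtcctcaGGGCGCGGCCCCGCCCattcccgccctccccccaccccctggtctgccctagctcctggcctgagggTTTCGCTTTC

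Motifs were searched on both strands in the 250 bases before each RefSeq start. The *Tnf* window held 1 match to the NF-kB-type pattern GGGNNNNNCC, the letters GGGTGTCCCC 194 to 185 bases before the start, and a TATAAA box 29 to 24 bases before it. The *Tnfrsf1b* window held overlapping matches to the NF-kB-type pattern 77 to 62 bases before the start and the interferon-response-type letters TTTCGCTTTC directly at it. Matches were also found for 2 genes whose RNA differed little. The second of the *Tnfsf13b* windows held the interferon-response-type letters GAAAGTGAAA 16 to 7 bases before its RefSeq start. It also held the AP-1-type letters TGAGTCA 127 to 121 bases before that start. The *Tnfrsf1a* window held the NF-kB-type letters GGGTTAGTCC 216 to 207 bases before its RefSeq start. Both of these RefSeq starts lie inside the annotated gene, and each of these matches lies past the annotated start, within the gene. No pattern searched was in the windows of *Tnfsf10* or *Tnfsf15*, which says only that these letters are not there. Of 32851 RefSeq windows of this length, 45.8% held GGGNNNNNCC, 12.4% held TATAAA, 6.75% held TGANTCA (the AP-1 type) and 2.98% held TTTCNNTTTC. A window was found for 6 of the 8 genes, and none was printed for *Tnfsf9* or *Tnfsf12*. A match is a description of the sequence, not of binding.

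Between the control and the 4 h library, 2 of the ligands were lower and 2 higher, with *Tnf* the highest ligand in every library. *Tnf* and *Tnfsf9*, abundant in UI and LP1, were 2.99-fold and 4.60-fold lower in LP4, while *Tnfsf10* and *Tnfsf15*, at about 1 CPM or less before, were 12.9-fold and 86.6-fold higher. *Tnfrsf1b* was 1.74-fold higher at 4 h and passed *Tnf* as the highest of the 8 genes, and *Tnfrsf1a* stayed between 56.8 and 69.2 CPM in all 3 libraries.

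**Figure D1:**
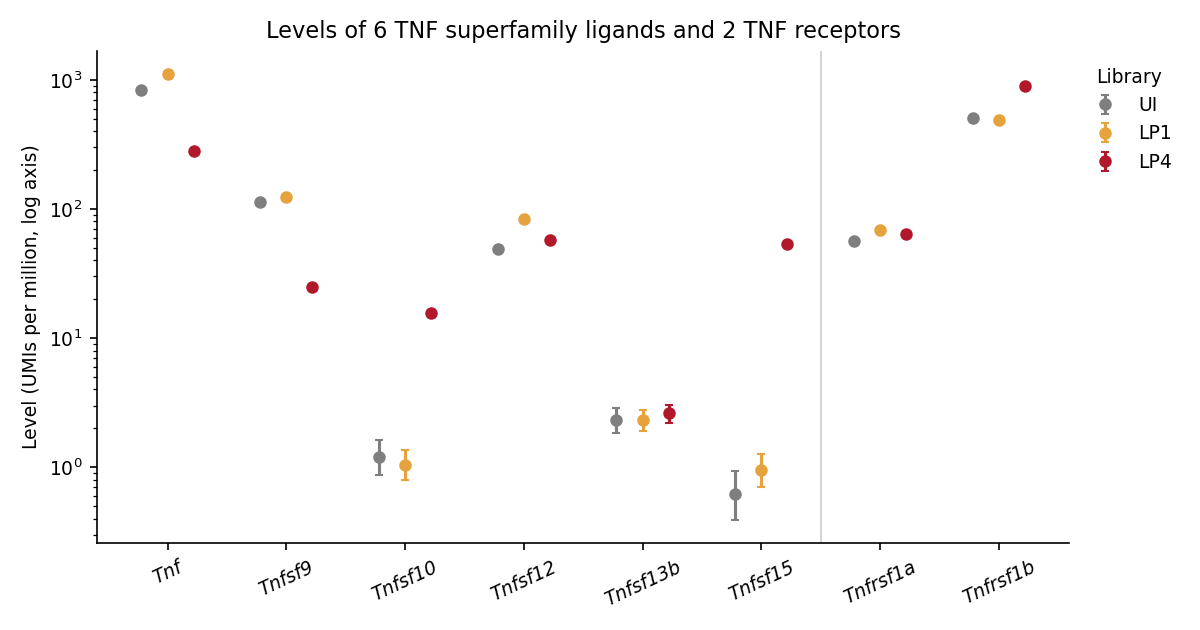
RNA level of the 8 genes in CPM (log axis) in UI, LP1 and LP4, 1 point per library with 95% Poisson intervals, ligands left of the grey line and receptors right of it. *Tnf* and *Tnfsf9* lie lowest in LP4, *Tnfsf10* and *Tnfsf15* are near 1 before 4 h and at 15.5 and 53.4 in LP4, and *Tnfrsf1b* is highest in LP4.

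*Tnf* (chr17:35199381-35202007 on GRCm38, minus strand), the cytokine that gives the family its name, was at 839.8 CPM in UI (interval 830.3 to 849, 29971 UMIs), 1119 in LP1 (1109.9 to 1128, 58719 UMIs) and 280.4 in LP4 (276 to 285, 17219 UMIs). It was the 159th most abundant gene of 19821 with a UMI in the control library, the 116th of 20087 in LP1 and the 574th of 20339 in LP4. Its RNA was thus already plentiful in the PBS-treated cells, somewhat higher at 1 h and well below the control at 4 h. The log2 ratio was 0.41 for LP1 against UI (0.39 to 0.43, 1.33-fold), -1.58 for LP4 against UI (-1.61 to -1.56) and -1.996 for LP4 against LP1 (-2.02 to -1.97, 3.99-fold lower). The decrease was also there in the raw UMIs, with a median of 4, 10 and 1 *Tnf* UMIs per cell in UI, LP1 and LP4 although total UMIs per cell were highest in LP4.

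*Tnfsf9* (chr17:57105325-57107757, plus strand), the ligand of the T cell costimulatory receptor Tnfrsf9, was at 114 CPM in UI (110.4 to 117), 124 in LP1 (121 to 127) and 24.7 in LP4 (23.5 to 26.0). The first pair of libraries lay close together and LP4 lay far below both. The log2 ratio was 0.13 for LP1 against UI (0.07 to 0.18), -2.20 for LP4 against UI (-2.29 to -2.12) and -2.33 for LP4 against LP1 (-2.41 to -2.25, 5.02-fold lower). Among the 8 genes it was the third in UI and LP1 and the sixth in LP4.

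*Tnfsf15* (chr4:63727084-63745113, minus strand), a ligand of the death domain receptor Tnfrsf25 that costimulates T cells, was at 0.616 CPM in UI (0.386 to 0.933, 22 UMIs), 0.953 in LP1 (0.707 to 1.26, 50 UMIs) and 53.4 in LP4 (51.6 to 55.2, 3278 UMIs). It went from the lowest of the 8 genes to the fifth. The log2 ratio of LP4 to UI was 6.44 (5.84 to 7.11), and 0.0418% of the genes tested had a higher one. Against LP1 it was 5.81 (5.41 to 6.24, 56.0-fold). At 1 h the ratio to UI was 0.63 with an interval of -0.12 to 1.42 over all cells, so a difference was not detectable there at this depth. In macrophage-like clusters alone it was 1.19 (0.30 to 2.17), which is past 2-fold, and in the macrophage-like cluster A, with 6 UMIs in UI and 28 in LP1, it was 1.88 (0.58 to 3.44). No other cluster had enough UMIs for a ratio at 1 h, and their few UMIs went both ways. Macrophage-like cluster D had 5 in UI and 3 in LP1, and macrophage-like cluster C had 1 and 9. Cycling-like cluster F, which the value of 1.19 leaves out, had 8 of the 22 UMIs in UI and 3 in LP1. In LP1, 5 cells held 50% of the 50 *Tnfsf15* UMIs.

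*Tnfsf10* (chr3:27317028-27342427, plus strand), a death ligand and a known interferon-inducible gene, was at 1.20 CPM in UI (0.872 to 1.62, 43 UMIs), 1.05 in LP1 (0.790 to 1.36, 55 UMIs) and 15.5 in LP4 (14.6 to 16.6, 954 UMIs). The control and 1 h values overlapped within their intervals, and LP4 was far above both. The log2 ratio was -0.20 for LP1 against UI (-0.80 to 0.41), 3.69 for LP4 against UI (3.25 to 4.16) and 3.89 for LP4 against LP1 (3.497 to 4.31, 14.8-fold). It stayed seventh of the 8 genes in every library.

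*Tnfsf12* (chr11:69686250-69695849, minus strand), the ligand of Tnfrsf12a, was at 49.1 CPM in UI (46.8 to 51.4), 83.8 in LP1 (81.4 to 86.3) and 57.3 in LP4 (55.4 to 59.2). Of the 8 genes it was the one furthest above the control at 1 h by a ratio whose interval left out 0, at a log2 ratio of 0.77 (0.69 to 0.85, 1.71-fold). At 4 h it was back near the control, with 0.22 against UI (0.14 to 0.31) and -0.55 against LP1 (-0.61 to -0.48). Its counts are uncertain in 1 respect: it lies 466 bases from *Tnfsf13*, another ligand gene, and inside the annotated read-through gene *Tnfsfm13*, which is not a row of the tables. *Tnfsf13* itself was at 71.9, 90.3 and 66.7 CPM in UI, LP1 and LP4.

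*Tnfsf13b* (chr8:10006467-10039072, plus strand), a survival factor for B cells, was low in each library, at 2.33 CPM in UI (1.85 to 2.88), 2.31 in LP1 (1.91 to 2.76) and 2.61 in LP4 (2.22 to 3.04). The 3 intervals overlapped. Over all cells its log2 ratio was -0.01 for LP1 against UI (-0.43 to 0.41) and 0.16 for LP4 against UI (-0.23 to 0.56). Changes past 1.5-fold in either direction lie outside both of these counting intervals. In cycling-like cluster F, with 6 UMIs in UI, 9 in LP1 and 22 in LP4, LP4 was higher. The log2 ratio there was 1.42 against UI (0.07 to 3.01) and 1.64 against LP1 (0.46 to 2.94). Of 5 clusters with enough UMIs, F was the only 1 whose interval left out 0.

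*Tnfrsf1b* (chr4:145213463-145246870, minus strand) was at 511 CPM in UI (503 to 518), 493 in LP1 (487 to 499) and 891 in LP4 (883 to 898). It went from the 276th to the 151st most abundant gene between UI and LP4, and was above *Tnf* in LP4 alone. The log2 ratio to UI was 0.80 at 4 h (0.78 to 0.83), and that of LP4 to LP1 was 0.85 (0.83 to 0.88, 1.81-fold). At 1 h the ratio to UI was -0.05 (-0.08 to -0.02), a direction that turned to 0.02 under TMM scaling and under the median of ratios and to 0.00239 in macrophage-like clusters without the one led by *Nptx1*.

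*Tnfrsf1a* (chr6:125349362-125362484, plus strand) was at 56.8 CPM in UI (54.4 to 59.4), 69.2 in LP1 (66.9 to 71.4) and 64.5 in LP4 (62.5 to 66.5). Its range over the libraries was narrow beside that of *Tnfrsf1b*. The log2 ratio was 0.28 for LP1 against UI (0.20 to 0.36, 1.22-fold), 0.18 for LP4 against UI (0.11 to 0.26) and -0.10 for LP4 against LP1 (-0.17 to -0.04), the last of which turned to 0.03 under the median of ratios.

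A gene was counted as past 2-fold when its log2 ratio was at least 1 in size and its counting interval left out 0, among genes with at least 20 UMIs in both libraries together. For LP1 against UI none of the 8 genes was, beside a background of 1.20% of 14085 genes higher and 2.84% lower. For LP4 against UI, 2 of the 8 were higher (*Tnfsf15* and *Tnfsf10*) and 2 lower (*Tnfsf9* and *Tnf*), where 11.0% of 14361 genes were higher and 15.2% lower. For LP4 against LP1 the same 4 genes were past 2-fold in the same directions, where 10.6% of 14506 genes were higher and 12.1% lower. The median log2 ratio of the 8 was 0.20, 0.20 and 0.04 in these 3 comparisons, beside -0.04, -0.15 and -0.10 over all genes tested. The comparisons share libraries and are not independent of each other.

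The scaling decides where the background lies. TMM and the median of ratios raised the ratios of LP4 to UI for all genes by 0.17 and 0.21, which put *Tnf* at -1.41 and -1.38 and *Tnfsf9* at -2.03 and -1.997. Of the genes past 2-fold in that comparison, 42.0% were higher under CPM, 54.1% under TMM and 56.5% under the median of ratios. For LP1 against UI the share was 29.7% under CPM, 40.3% under TMM and 40.6% under the median of ratios.

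**Figure D2:**
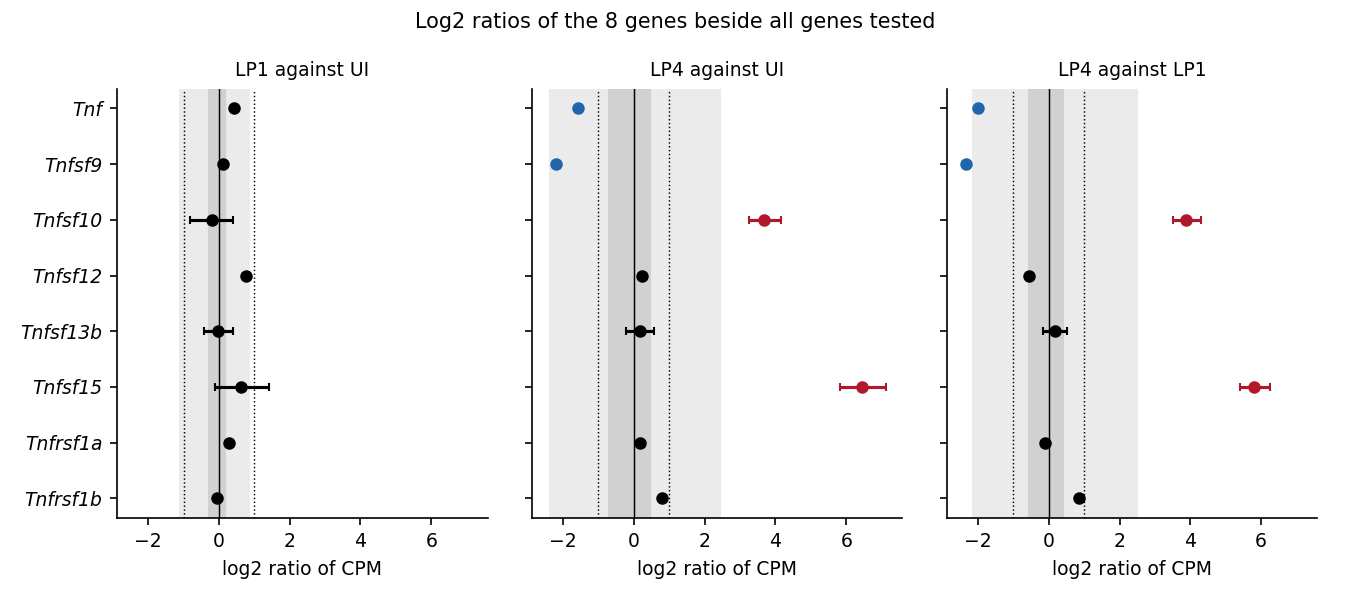
Log2 ratio of CPM for each gene in the 3 comparisons with 95% counting intervals, the dark and pale grey bands holding the middle 50% and 95% of all genes tested and the dotted lines marking 2-fold. Past 2-fold, *Tnfsf10* and *Tnfsf15* (red) are higher and *Tnf* and *Tnfsf9* (blue) lower in LP4 against either library, and no gene is past it in LP1 against UI.

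To compare the share of cells with a UMI at equal depth, every cell was cut down at random to 2000 of its UMIs (thinned), leaving out 122 shallower cells of UI, 13 of LP1 and 45 of LP4. *Tnf* was then seen in 71.5% of UI cells (70.4 to 72.7), 78.7% of LP1 cells (77.6 to 79.9) and 31.1% of LP4 cells (29.7 to 32.4), and without thinning in 88.0%, 95.6% and 63.5%. *Tnfrsf1b* was seen in 58.8%, 58.3% and 81.0% of cells (79.8 to 82.1 in LP4), and without thinning in 83.2%, 92.3% and 99.3%. No cell type that should lack these genes gave a background share here, so free RNA as a source of part of these UMIs was not tested.

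The other genes were seen in fewer cells. *Tnfsf9* was in 18.6%, 20.2% and 4.24% of thinned cells (36.0%, 52.7% and 16.3% unthinned), and *Tnfsf12* was in 9.19%, 15.0% and 10.5% (23.2%, 51.0% and 46.04%). *Tnfrsf1a* was in 10.5%, 12.7% and 12.2% (26.7%, 47.6% and 52.3%). These shares keep the order of the CPM, and *Tnfsf13b* stayed at 0.455% to 0.541%, within overlapping intervals.

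*Tnfsf10* was in 0.286%, 0.218% and 3.33% of thinned cells (2.83 to 3.89 in LP4; 0.560%, 0.809% and 14.8% unthinned), and *Tnfsf15* was in 0.118%, 0.158% and 4.80% (4.202 to 5.46 in LP4; 0.280%, 0.573% and 10.9% unthinned). Even in LP4 each was detected in a small minority of cells. As a background, the thinned neutrophil-like cells of LP4 (median of 9262 UMIs beside 11838 in all thinned cells) had *Tnfsf9*, *Tnfsf10* and *Tnfsf15* in 0 of 28, where a count of 0 allows a share of up to 10.7% by 3 counts of the total. In UI and LP1 those 3 genes were likewise in 0 of 21 and 0 of 20 such cells (medians of 3947 and 6220 UMIs), which allows up to 14.3% and 15.0%. These limits lie above the LP4 shares of all 3 genes, and so few cells set no useful background. Free RNA as a source of the few UMIs of *Tnfsf10* and *Tnfsf15* before 4 h was not tested. *Tnf* was in 66.7%, 75% and 57.1% of neutrophil-like cells of UI, LP1 and LP4 (37.2 to 75.5 in LP4), which can make TNF themselves. In LP4 alone, the *Tnf* share over all cells, 31.1%, lay below that of the neutrophil-like cells. *Tnfrsf1b* was in 33.3%, 40.0% and 60.7% of the neutrophil-like cells.

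**Figure D3:**
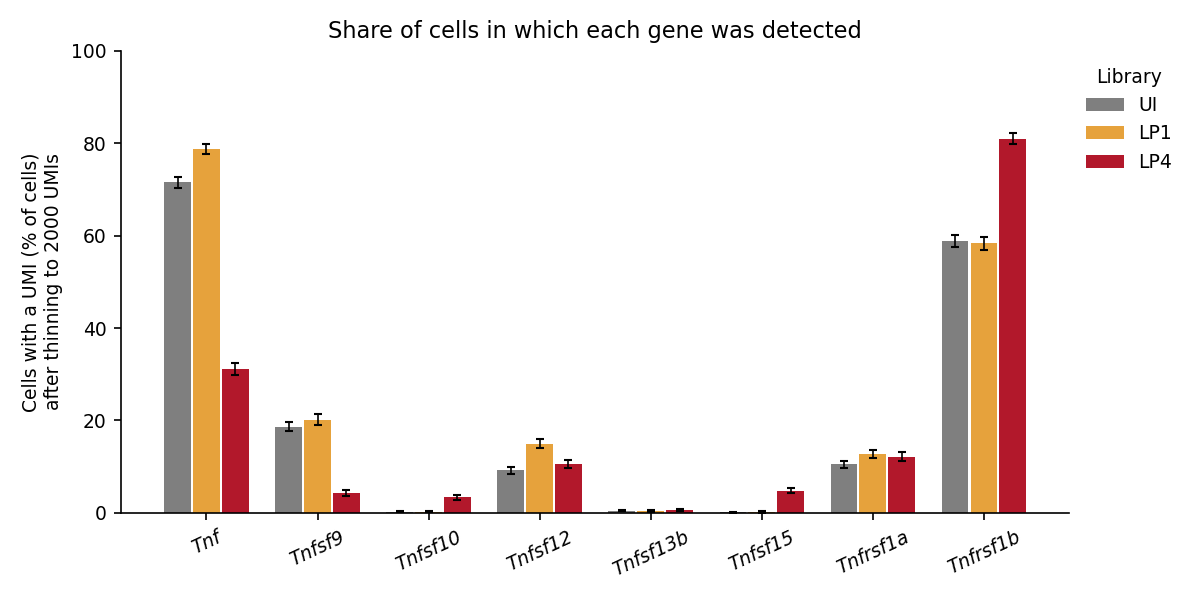
Share of cells with at least 1 UMI of each gene after thinning every cell to 2000 UMIs, bars for UI, LP1 and LP4 with 95% exact binomial intervals. *Tnf* goes from 71.5% and 78.7% to 31.1% in LP4, *Tnfrsf1b* from 58.8% and 58.3% to 81.0%, and *Tnfsf15* reaches 4.80%.

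The genes differed in how evenly cells shared them. *Tnfsf15* was the most uneven in LP4: 52 of 4670 cells (1.11%) held 50% of its UMIs, its highest cell had 74, and the 511 cells with any held 6.41 on average. *Tnfsf10*, at a similar share of cells, was spread thinly, with 1.38 UMIs per positive cell and at most 6. For *Tnf*, 50% of the UMIs lay in 20.4%, 23.4% and 10.4% of the cells of UI, LP1 and LP4, and the highest cell had 36, 67 and 150 UMIs. The ratio of variance to mean in thinned cells, near 1 for counts drawn at 1 common rate, was 1.68, 1.82 and 2.42 for *Tnf*, 2.77 for *Tnfsf15* in LP4, and 1.37, 1.34 and 1.36 for *Tnfrsf1b*. The lower *Tnf* level at 4 h thus came with a more uneven spread. For *Tnfrsf1b*, 50% of the UMIs lay in 20.3%, 22.8% and 28.6% of cells, and the top 10% of thinned cells held 35.3%, 35.0% and 27.3% of its UMIs. By these shares, which also move with the level, it was spread over more cells at 4 h.

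Within a library, some of the genes were seen in a higher share of the cells that held another of the 8 than of the cells that did not. Among thinned cells, *Tnfsf9* was in 19.7% of UI cells with *Tnf* (18.5 to 20.9) and 15.8% of those without (14.1 to 17.6), in 21.7% against 14.7% for LP1, and in 5.92% against 3.48% for LP4. In LP4, *Tnfsf15* was in 6.54% of cells with *Tnf* (5.32 to 7.95) and 4.02% of those without (3.36 to 4.76), and in 9.18% of cells with *Tnfsf9* (5.53 to 14.1) and 4.61% of those without (4.01 to 5.27). These pairs join a ligand that was higher at 4 h with both that were lower. In LP4 the shares also differed between the clusters described below. *Tnf* was in 37.7%, 38.7% and 25.1% of cells of A, C and B, and *Tnfsf15* in 6.01%, 6.29% and 3.63%. G (23.5% and 20.6%), the neutrophil-like cells (57.1% and 0%) and the cluster led by *Csmd1* (52.4% and 0%) did not follow that order. Whether the pairs hold within a cluster was not tested. *Tnfrsf1b* was in 85.1% of LP4 cells with *Tnfrsf1a* and 80.4% of those without. The intervals lay apart in 2 of 35 directed pairs in UI, 2 of 35 in LP1 and 8 of 49 in LP4, with the higher share in cells that held the other gene. Each pair of genes is counted there in both directions, so these are not separate findings. The same share over pairs of other genes was not computed, so these counts cannot be called particular to the 8. In UI and LP1 the only such pair was *Tnf* with *Tnfsf9*. In LP4 the pairs were those among *Tnf*, *Tnfsf9* and *Tnfsf15* and that of *Tnfrsf1a* with *Tnfrsf1b*. Cells of 1 library are not replicates, and these are descriptions. None of the 8 genes was seen in 8.94%, 5.88% and 9.17% of thinned cells.

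Cells were clustered on genes that leave out the 8 and their pathway, and 6 clusters reached 50 cells in each of the libraries: A, B, C and E, macrophage-like and led by *Ch25h*, *Cxcl5*, *Mgll* and *Nptx1*, F, cycling-like and led by histone genes, and G, dendritic cell-like with 81, 63 and 68 cells in UI, LP1 and LP4. A further macrophage-like cluster, D, led by *Egr3*, held 22.6% of the cells in UI, 20.7% in LP1 and 0.685% in LP4. Cluster B held 16.2%, 14.7% and 38.6%. At a coarser clustering (resolution 0.3), a macrophage-like cluster led by *Egr3* also had *F13a1* and *Ms4a4a*, leading genes of B, among its own. It held 37.1%, 33.1% and 39.0%, so which clusters hold the macrophage-like cells at 4 h depends on the resolution. Whether B holds like cells in each library was not tested. A cluster took the name of a marker list with at least 3 genes among its 10 leading genes. Failing that, it was named macrophage-like if at least 3 of the 12 macrophage markers were seen in 50% or more of its cells. Clusters of far shallower cells were left unnamed. In the macrophage-like clusters at least 7 of the 12 were seen so, and none was among their 10 leading genes. In F and G, named from their leading genes, 9 and 8 of the 12 were seen so too. G took its name from *H2-Eb1*, *H2-Aa*, *H2-Ab1*, *Cd74* and *Ccl22*. The markers *Flt3*, *Zbtb46*, *Cd209a* and *Ccr7* of the same list were not among its leading genes. At resolution 0.3 the rule gave the dendritic cell name to a cluster of 1897 cells led by *Mgll*. The name thus does not tell dendritic cells from macrophages high in these genes. In E, the leading genes also hold *Ccnd1* and the DNA replication genes *Mcm3*, *Mcm4*, *Mcm5* and *Mcm6*, which are on in dividing cells. Ratios were also taken within clusters. *Tnf* was lower in LP4 than in UI in all 6, from -2.45 in F (-2.56 to -2.34) to -1.14 in C (-1.20 to -1.08). *Tnfsf9* was lower in all 6 too, from -3.19 in E (-3.52 to -2.88) to -1.70 in G (-2.30 to -1.11). At 1 h, the *Tnf* ratio to UI was above 0 in all 7 clusters with D included, the highest being 0.49 in A (0.46 to 0.52), and its interval left out 0 in all but G, where it was 0.08 (-0.14 to 0.30).

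*Tnfsf10* was higher in LP4 than in UI in each of the 5 clusters with enough UMIs, from 3.66 in E (2.38 to 5.32) to 5.28 in A (3.90 to 7.16), against 2 to 5 UMIs per cluster in UI. Cluster D, not compared for having 32 cells in LP4, held 20 of the 43 *Tnfsf10* UMIs of UI (46.5%). Its ratio was 3.15 (1.94 to 4.28, 11 UMIs in LP4), so the range above leaves out the cluster with the most *Tnfsf10* UMIs in UI. At the coarser clustering, the *Tnfsf10* ratio of LP4 to UI ran from 2.97 to 4.71 over 4 clusters, so the range moves with the resolution. *Tnfsf15* was higher in all 6. In G and E, where UI had no UMI, its log2 ratio was at least 5.91 and at least 4.09 against a floor of 3 counts, and in C it was 8.99 against 1 UMI (6.51 to 14.3). Its LP4 level was highest in G, the dendritic cell-like cells, at 381 CPM (339.7 to 426), and ran from 75.3 in C to 15.0 in E among the macrophage-like clusters. In thinned LP4 cells, *Tnfsf15* was seen in 14 of 68 cells of G, 20.6% (11.7 to 32.1), and in 4.68% of macrophage-like cells (4.07 to 5.36). Few cells set these levels: 4 of the 68 cells of G, with 34 to 47 UMIs each, held 154 of its 309 *Tnfsf15* UMIs, and G without them was at 209 CPM. Without their 4 highest cells, C was at 56.4 CPM and E at 3.96. Cluster G held 9.43% of the *Tnfsf15* UMIs of LP4.

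*Tnfrsf1b* was higher in LP4 than in UI in all 6 clusters, from 0.43 in G (0.23 to 0.63) to 0.97 in B (0.91 to 1.03), and its LP4 level ran from 608 CPM in C to 1119.5 in B. *Tnfrsf1a* at 4 h was above UI in B alone of these 6 by an interval that left out 0, at 0.62 (0.40 to 0.84). In D, with 32 cells in LP4, it was above UI too, at 0.68 (0.10 to 1.20, 32 UMIs in LP4). *Tnfsf12* at 1 h was above UI in all 7 clusters, up to 1.07 in E (0.81 to 1.33), by an interval that left out 0 in all but G, where it was 0.34 (-0.46 to 1.18). In LP4 against UI and against LP1, the ratios of the 4 genes past 2-fold had the direction of the whole library in every cluster of at least 50 cells per library that had enough UMIs. Among the smaller clusters, *Tnf* in the neutrophil-like cells was at 746 CPM in UI and 718 in LP4, a log2 ratio of -0.06 (-0.45 to 0.35). The cluster led by *Csmd1* went the other way, with *Tnf* at 353 CPM in the 21 cells of UI and 1420 in the 21 of LP4 (2.01, 1.58 to 2.47) and *Tnfsf9* at 36.7 and 316 CPM (3.10, 1.84 to 4.75). The higher LP4 values lay in a group led by *Ddit3* within it, described below, and not in its cells that express *Csmd1* and collagen genes.

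**Figure D4:**
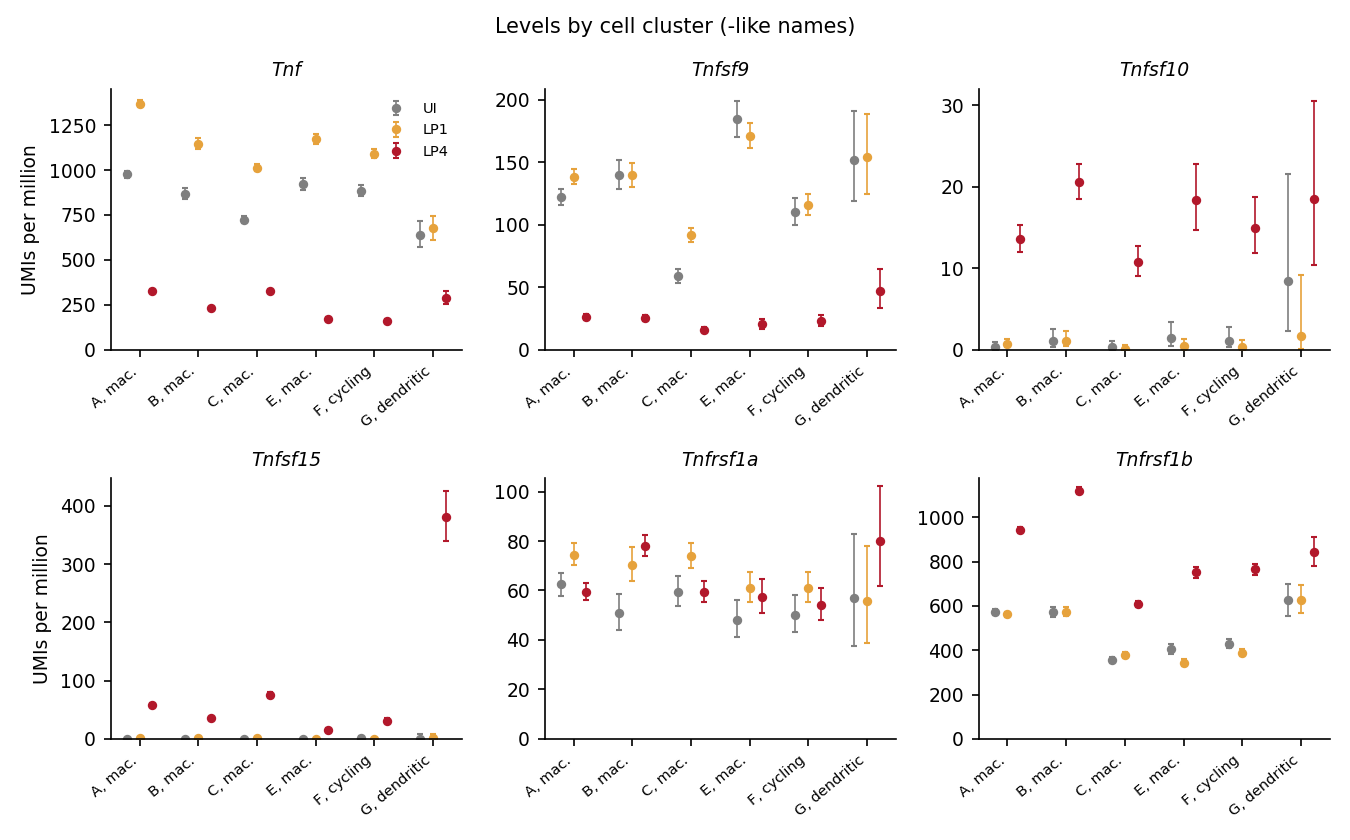
Level in CPM of 6 of the genes in the 6 clusters compared, points for UI, LP1 and LP4 with 95% Poisson intervals. *Tnf* and *Tnfsf9* are lowest in LP4 in each cluster, *Tnfrsf1b* is highest in LP4 in each, and *Tnfsf15* in LP4 reaches 381 in the dendritic cell-like cluster G.

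Within the cluster led by *Csmd1* lay most of a group of 49 cells that stood apart at a finer clustering, led by *Ddit3*, a stress response gene, and chosen after its values were seen. In its 18 UI and 16 LP1 cells *Tnf* was at 373 CPM (264 to 512) and 401 CPM (306 to 516), below the 841 and 1121 CPM of the other cells. In its 15 LP4 cells it was at 2245 CPM (2054 to 2449.7), beside 273 CPM in the other cells, and *Tnfsf9* was at 489 CPM (402 to 589) beside 23.03. In LP4, 13 of the 15 had a *Tnf* UMI, with a median of 11 and a range of 0 to 150 per cell, and 10 had *Tnfsf9*. *Tnfsf15* had no UMI there (up to 16.4 CPM). The group held 5 of the 20 cells of LP4 highest in *Tnf* and 3 of the 20 highest in *Tnfsf9*, and none of those in UI or LP1. Its median of 12435 UMIs per cell was near that of the library. Of its 49 cells, 48 lie in the cluster of 61 led by *Csmd1* and collagen genes, and without that cluster the same 4 of the 8 genes were past 2-fold. By the naming rule the *Ddit3* group was macrophage-like, with 6 of the 12 macrophage markers seen in 50% or more of its cells. At the finer clustering 13 cells were led by *Csmd1* and collagen genes. Their *Tnf* was at 292 CPM (140 to 537, 10 UMIs) in the 3 cells of UI and 7.37 CPM (0.187 to 41.0, 1 UMI) in the 7 of LP4. *Tnfsf9* had no UMI in them in either library.

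The genes whose pattern over 18 sums (6 clusters in 3 libraries) was most like that of each member but *Tnfsf13b*, which was left out for being under 10 CPM, by Pearson correlation of log2(CPM + 1) over 3694 genes with at least 50 CPM, are given as a description, since the sums of a library share its depth and its cells. For *Tnf* they were *Ier2* (r = 0.965), *Dock10* (0.965) and *Egr2* (0.958), of which *Ier2* and *Egr2* are immediate early genes. For *Tnfsf9* they were *Cd83* (0.966), *Jmjd1c* (0.965) and *Nlrp3* (0.965), and for *Tnfsf15* *March5* (0.959), *Lrch1* (0.956) and *Nr3c1* (0.953), the glucocorticoid receptor. For *Tnfsf10* they were *Oasl1* (0.971), *Sbno2* (0.968) and *Nlrc5* (0.962), of which *Oasl1* and *Nlrc5* are interferon-inducible. For *Tnfrsf1b* they were *Fcgr2b* (0.975), the inhibitory Fc receptor, *Ms4a4a* (0.965) and *Stk40* (0.955). No gene came that close to *Tnfsf12*, for which *Plin3* (0.834), *Dnase2a* (0.809) and *Anxa3* (0.788) led, or to *Tnfrsf1a*, for which *Fcgr3* (0.751), *Mgst1* (0.714) and *Selenok* (0.712) led.

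Genes of the family and its RNA control that neighbour the 8 in the genome had levels of their own. *Tnf* lies between the lymphotoxin genes *Lta*, 1.16 kb away with 5, 8 and 11 UMIs in UI, LP1 and LP4, and *Ltb*, 3.06 kb away at 2.19, 2.04 and 1.25 CPM. *Cd70*, 38.2 kb from *Tnfsf9*, had 4, 2 and 0 UMIs. *Tnfsf14*, 81.7 kb from *Tnfsf9*, was at 3.33, 2.95 and 11.2 CPM, higher in LP4 where *Tnfsf9* was lower. *Tnfsf8*, 86.2 kb from *Tnfsf15*, was at 6.67, 8.71 and 37.4 CPM and was higher at 4 h as *Tnfsf15* was. *Tnfrsf8*, 20.3 kb from *Tnfrsf1b*, was at 12.0, 7.62 and 6.60 CPM, *Ltbr*, 35.5 kb from *Tnfrsf1a*, at 44.2, 42.5 and 33.6 CPM, and *Khsrp*, an RNA-binding protein gene 73.8 kb from *Tnfsf9*, at 37.7, 38.6 and 45.6 CPM.

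Of 83 other genes of the family and its pathway, 69 were tested for LP1 against UI and 0 were past 2-fold, beside the 1.20% and 2.84% of all genes. For LP4 against UI, 72 were tested, of which 20 (27.8%) were higher and 5 (6.94%) lower, beside 11.0% and 15.2% of all genes, with a median log2 ratio of 0.26 beside -0.15. For LP4 against LP1, 16 of 72 (22.2%) were higher and 0 lower, beside 10.6% and 12.1%, with a median of 0.26 beside -0.10.

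Of the other ligands, 3 of 8 tested (37.5%) were higher and none lower at 4 h against UI, beside 11.0% and 15.2% of all genes. *Tnfsf8*, the ligand of Tnfrsf8, had a log2 ratio of 2.49 (2.30 to 2.69), and *Tnfsf14*, a ligand of Ltbr, 1.74 (1.46 to 2.04). The third, *Tnfsf11*, named after its value was seen, had 129 UMIs in LP4 of which 125 were in the small cluster led by *Csmd1*. Of the other receptors, 5 of 19 (26.3%) were higher and 3 (15.8%) lower, the second share being near the 15.2% of all genes. Among the 5, *Tnfrsf11b*, named after its value was seen, had no UMI in UI and 24 in LP4, of which 22 were in the cluster led by *Csmd1*. *Cd40*, which receives T cell help, was at 50.3 CPM in UI and 204.9 in LP4 (2.03, 1.96 to 2.10), *Fas*, a death receptor, at 21.1 and 82.3 (1.96, 1.85 to 2.07), and *Tnfrsf11a*, the receptor of Tnfsf11, at 105 and 213 (1.02, 0.96 to 1.07). *Tnfrsf13b*, a receptor of Tnfsf13b, was lower, at 43.8 CPM in UI and 17.3 in LP4 (-1.34, -1.46 to -1.23). *Tnfrsf9*, the receptor of Tnfsf9 and also named after its value was seen, was at 0.476 CPM in UI, 0.438 in LP1 and 9.64 in LP4, with a 4 h log2 ratio to UI of 4.34 (3.65 to 5.13), so receptor and ligand RNA went in opposite directions at 4 h.

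Of 17 genes that shed TNF from the membrane or control its RNA, 5 (29.4%) were higher and 0 lower at 4 h against UI. The shares over all genes were 11.0% and 15.2%, and the median log2 ratio of the 17 was 0.68. *Zfp36*, whose protein binds *Tnf* RNA and speeds its decay, was at 93.2 CPM in UI, 184.5 in LP1 and 398 in LP4, giving 2.09 on the log2 scale at 4 h (2.04 to 2.15). It was higher at each time than before, whereas *Tnf* was higher at 1 h and lower at 4 h. Of the same list, *Zfp36l1* was at 156, 177 and 133 CPM and *Zfp36l2* at 86.7, 96.5 and 65.2 in UI, LP1 and LP4. These last genes, named after their values were seen, were lowest at 4 h. A link of any of these genes to the *Tnf* level was not tested. *Sppl2a*, a protease that cuts the membrane stub of TNF, was at 81.2 CPM in UI and 252 in LP4 (1.64, 1.58 to 1.69), and *Rhbdf2*, a partner of the sheddase Adam17, at 40.3 and 109 (1.43, 1.35 to 1.51). *Adam17* itself, named after its values were seen, was at 211, 230.1 and 192 CPM in UI, LP1 and LP4. *Timp3*, an Adam17 inhibitor named after its value was seen, had 180 UMIs in LP4, of which 178 were in the cluster led by *Csmd1*. Without that cluster, 17 of 68 other genes were higher and 5 lower for LP4 against UI, beside 10.7% and 15.5% of all genes tested.

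Of 28 genes of receptor signalling and feedback, 7 (25%) were higher and 2 (7.14%) lower at 4 h against UI. The shares over all genes were 11.0% and 15.2%, and the median log2 ratio of the 28 was 0.22. *Mlkl*, the effector of necroptosis, was at 12.5 CPM in UI and 53.7 in LP4 (2.11, 1.96 to 2.25), the adaptor gene *Traf2* at 9.33 and 23.9 (1.36, 1.18 to 1.53), *Tab2*, a partner of the kinase Map3k7, at 116 and 283 (1.29, 1.24 to 1.34), and *Tnip2*, a partner of the A20 protein, at 37.2 and 82.6 (1.15, 1.06 to 1.24). *Tab1* was lower, at 10.3 CPM in UI and 4.35 in LP4 (-1.25, -1.48 to -1.01), and so was *Otulin*, a deubiquitinase of linear chains, at 166 and 82.8 (-1.01, -1.06 to -0.95). *Rnf31*, the catalytic subunit of the linear ubiquitin ligase, had a log2 ratio of 1.46 for LP4 against LP1 (1.32 to 1.61). The feedback inhibitor *Nfkbia* was at 1199 CPM in UI, 1926 in LP1 and 1036 in LP4, highest at 1 h as *Tnf* was. *Traf1*, of the same list, was at 53.1, 48.9 and 92.2 CPM, highest at 4 h. Both were named after their values were seen, neither was past 2-fold, and shared control with *Tnf* was not tested.

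**Figure D5:**
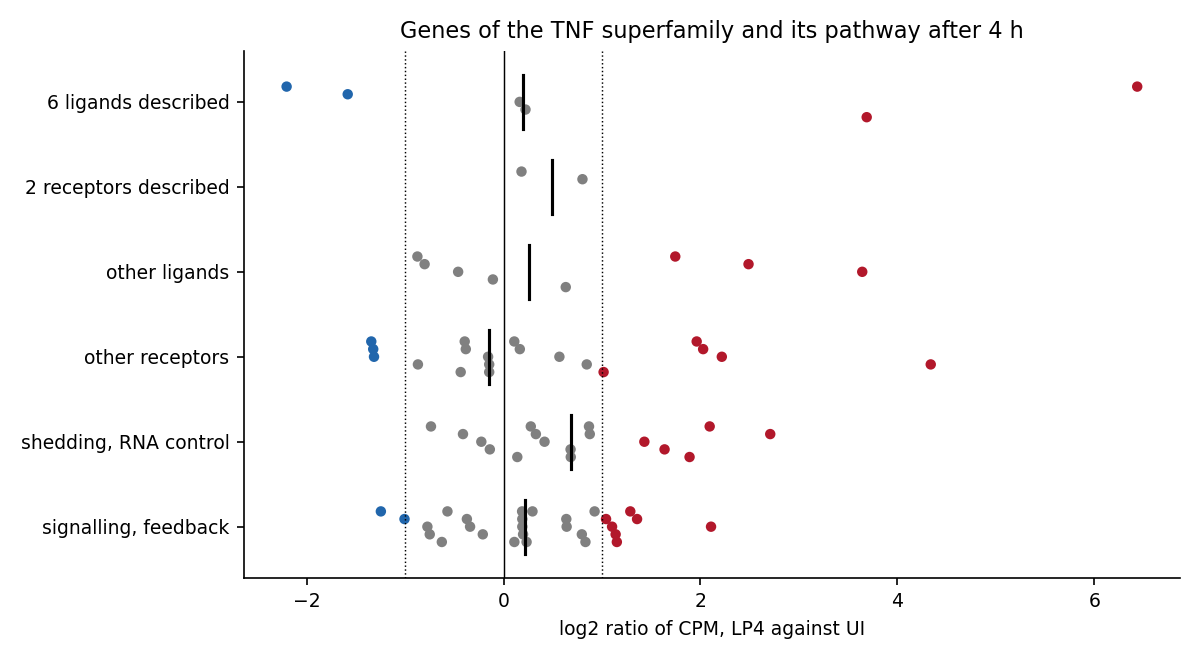
Log2 ratio of CPM for LP4 against UI of the 8 genes and of the other genes in 4 lists, 1 point per gene tested, with black bars at the median of each list and dotted lines at 2-fold. Red points are past 2-fold higher and blue points lower, and the 17 genes of shedding and RNA control have 5 red and no blue points. Over all genes tested, 11.0% were higher and 15.2% lower.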

How the data were processed

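Single-cell RNA was measured in 1 library each of UI, LP1 and LP4. The authors ran Cell Ranger (7.1.0 in the submitters' processing notes) on mm10 and deposited the raw UMI counts of each gene in each barcode, for 6123, 5119 and 5039 barcodes. Whether intronic reads were counted is not given in the sources used here. A barcode was kept above 500 UMIs and 500 genes and below 5% mitochondrial UMIs, which left more cells than the study states. The 8 genes and the lists were chosen with earlier results of these data known.

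For each gene the UMIs of all kept cells were added and divided by the library's total to give CPM, with exact Poisson intervals, and libraries were compared by log2 ratios with exact conditional binomial intervals. A count of 0 was given a floor of 3 counts. Shares of cells have exact (Clopper-Pearson) binomial intervals. With 1 library per condition no p-value was computed.

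For clustering, 2000 variable genes outside the pathway and differing under 1.5 times between libraries were centred within library and reduced to 30 components, and Leiden clustering used 20 neighbours, a resolution of 0.5 and a seed of 20. Clusters were named from marker lists. Positions are those of GENCODE vM21 on GRCm38, and all 8 gene IDs matched. Of 4 other lists of family and pathway genes, those past 2-fold and at 10 CPM or more in the higher of the libraries were named, at most 4 per list and direction, with the 3 genes most like each member and list genes that neighbour one.

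TMM factors came from edgeR 4.0.16 in R 4.3.3. Clusters were made with scanpy 1.11.5 and scikit-learn 1.9.0, intervals with scipy 1.17.1 and plots with matplotlib 3.10.9, under Python 3.11.15 with pandas 2.3.3 and numpy 2.4.6. The scripts were tested on simulated data. Alternatives were other cell filters, other scalings, means over cells, macrophage-like clusters alone, high doublet scores left out, other minimums and thresholds, other thinning depths and other resolutions.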

Additional observations from a re-analysis of the deposited data

Results flagged for a closer look

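For *Tnfrsf1b*, the log2 ratio of LP1 to UI lay above 0 in the macrophage-like clusters C (0.0927, interval 0.02 to 0.17) and D (0.0664, 0.01 to 0.13) and below 0 in the cluster E led by *Nptx1* and replication genes (-0.24, -0.34 to -0.14) and the cycling-like cluster F (-0.15, -0.24 to -0.05). The opposite directions between clusters were not tested, since each condition has 1 library.

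The barcodes left out for 5% or more mitochondrial UMIs, 18 in UI, 43 in LP1 and 273 in LP4, entered the comparisons only where the cell filter was relaxed, where the same 4 genes were past 2-fold, and hold signal above the level of the kept UI cells for some of the genes. In LP1 they held *Tnfsf12* at 93.1 CPM (61.4 to 135). In LP4 they held *Tnfsf15* at 23.6 CPM (18.6 to 29.4), *Tnfsf10* at 9.66 CPM (6.61 to 13.6), *Tnfrsf1b* at 748 CPM (719 to 778) and *Tnfsf12* at 61.9 CPM (53.7 to 71.0), beside 53.4, 15.5, 891 and 57.3 CPM in the kept LP4 cells.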

How the results depend on the processing

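No paired analysis was possible because each condition has 1 library. The 4 genes past 2-fold in LP4 against UI and against LP1 were so under every alternative run, and counts of genes past 2-fold stayed within 1.5 times in 62 of 72 cases. For LP1 against UI, the count of the 8 genes went from 0 to 1 in macrophage-like clusters alone (*Tnfsf15*, 1.19), to 1 in the same without the cluster led by *Nptx1* (*Tnfsf15*, 1.18) and to 1 at 1.5-fold (*Tnfsf12*), and that of other pathway genes from 0 to 2 under TMM and under the median of ratios (*Tnfrsf12a* and *Zfp36*), 1 in macrophage-like clusters alone (*Zfp36*), 1 with high doublet scores left out (*Tnfrsf12a*) and 6 at 1.5-fold. At 1.5-fold the other pathway genes numbered 42 for LP4 against UI and 33 for LP4 against LP1. The share of all genes past 1.5-fold was not computed, so the counts at 1.5-fold have no background. The median of ratios put *Tnfrsf1b* past 2-fold in LP4 against UI (1.01). The ratio of *Tnfrsf1b* in LP1 against UI turned to 0.0191 under TMM and 0.0234 under the median of ratios and to 0.00239 in macrophage-like clusters without the one led by *Nptx1*, and that of *Tnfrsf1a* in LP4 against LP1 to 0.02995 under the median of ratios; the scalings do so by their construction, and the cause of the other was not tested. Of 240 ratios, 198 moved by less than their counting interval. Clusters of at least 50 cells in both libraries were also compared at resolutions of 0.3 and 0.8. In each of them with enough UMIs, *Tnf* and *Tnfsf9* were lower in LP4 against either library, as at 0.5. *Tnfsf10*, *Tnfsf15* and *Tnfrsf1b* were higher in each. Smaller clusters are left out of this, among them the cluster led by *Csmd1* and the *Ddit3* group, where *Tnf* and *Tnfsf9* were higher in LP4. Other counts moved: *Tnfrsf1a* in LP4 against LP1 gained 1 cluster above at both, *Tnfsf9* in LP1 against UI gained 1 below at 0.8, *Tnfsf13b* in LP4 against UI lost its 1 above at 0.3, and *Tnfsf15* in LP1 against UI had no cluster with enough UMIs at 0.8. The shares of cells follow the thinning depth, and 64 of 72 moved past their interval at another depth. The doublet caller marked at most 0.0987% of cells and so did not work, and high scores were left out instead. The alternatives without the clusters led by *Csmd1* and *Nptx1* were chosen after seeing the data. Below about 20 UMIs in both libraries together, no ratio was read.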
